A study of Mus musculus with 25 samples.

Results

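Among 25 whole-transcript arrays of mouse mammary tissue, 7 carried a strong squamous (skin-like) expression pattern, and they are described here against 13 arrays with high hormone-receptor expression. The squamous-high arrays were those titled K8 tumor 9, Lgr5 tumor 10, K8 control glands 1 and 2 and Lgr5 control glands 1, 2 and 3. The hormone-receptor-high tumors were those titled K8 tumors 1 to 8 and 10 and Lgr5 tumors 1, 3, 4 and 5. Both sets were chosen from measured values of Krt6b, Sprr1b, Klk6, Krtdap, Esr1 and Foxa1, not from the titles, and the 5 other arrays (Lgr5 tumors 2, 6, 7, 8 and 9) belong to neither set. Because every gene on the same arrays counts as used by that choice, differences between the sets are given as values and ranges, with no test.

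Arrays titled tumor came from K8-creERT2/PIK3CA H1047R mice on a mixed FVB/CD1 background or from Lgr5-creERT2/PIK3CA H1047R mice on a mixed FVB/C57/BL6 background. In these lines a tamoxifen-dependent Cre, driven in keratin 8-positive luminal cells or in Lgr5-positive cells, switches on an activated form of the PI3-kinase catalytic subunit. Tamoxifen was given at 7 to 8 weeks of age, in a treatment text that the labels repeat for every sample. Arrays titled gland came from K8-creERT2 or Lgr5-creERT2 control mice of the same backgrounds. The labels do not say whether the controls carry the PIK3CA allele, how old any animal was at collection, or whether the samples of a group are different animals. The p-values therefore reflect scatter among these arrays, part of which may be technical. Line and strain background cannot be told apart.

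Squamous epithelium builds a cornified envelope, in which precursor proteins such as involucrin and the small proline-rich proteins are cross-linked under the membrane of dying keratinocytes, while kallikrein proteases later cut the desmosomes that hold the cells together. Mammary ducts normally hold luminal cells, some of which express the estrogen and progesterone receptors, and an outer layer of contractile myoepithelial cells. Patches of squamous differentiation are known in mammary tumors.

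Fat markers were low in the squamous-high arrays titled gland. The mean of 15 adipocyte genes lay between 7.45 and 9.44 (log2) in the 7 squamous-high arrays, of which 5 are titled gland, a tissue embedded in fat. In the hormone-receptor-high tumors it lay between 7.80 and 11.03, so low values were not particular to the squamous-high set. It lay between 12.40 and 12.61 in the 5 arrays of neither set, which are titled tumor. Averaged over 23 cell cycle genes, the level was 9.08 to 9.76 in the squamous-high arrays and 6.93 to 7.93 in those 5. It was 8.16 to 9.30 in the hormone-receptor-high tumors. Which tissue each title belongs to was not tested, and arrays are named by title throughout. All values are on the deposited log2 scale, on which the 25 arrays had medians between 6.34 and 6.43.

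The markers that chose the arrays separated the sets as follows. Klk6, a kallikrein serine protease of skin, had a lowest, median and highest value of 11.07, 12.02 and 12.74 in the squamous-high arrays and of 5.53, 5.77 and 9.65 in the hormone-receptor-high tumors. The means were 12.10 ± 0.57 (SD, n = 7) and 6.32 ± 1.20 (SD, n = 13), a 55.1-fold difference. Krt6b, a keratin of stressed and wounded epidermis, was at 10.01, 11.31 and 12.08 against 6.13, 6.37 and 7.90. Sprr1b, a small proline-rich envelope precursor, was at 8.43, 10.06 and 10.23 against 5.62, 5.85 and 6.28. None of these ranges overlapped. In bulk tissue a larger share of expressing cells cannot be told apart from more RNA per cell.

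Krtdap, a secreted product of differentiating keratinocytes, was at 9.14, 10.33 and 11.84 against 5.23, 5.39 and 9.77. Here the ranges overlapped, because the array titled Lgr5 tumor 4 (9.77) lay above K8 gland 1 (9.14), Lgr5 tumor 10 (9.25) and Lgr5 gland 2 (9.71). Lgr5 tumor 4 also had the highest Klk6 (9.65) and Krt6b (7.90) outside the squamous-high set. Of the luminal markers, Esr1, the estrogen receptor, was at 7.26, 7.71 and 8.22 against 8.90, 9.26 and 9.66. Foxa1, the factor that opens chromatin for that receptor, was at 7.14, 7.84 and 9.72 against 10.48, 11.32 and 11.82. The 5 arrays in neither set had Esr1 at 9.46 to 9.82 and Foxa1 at 9.66 to 10.15, so high Esr1 was not particular to the hormone-receptor-high tumors.

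**Figure D1:**
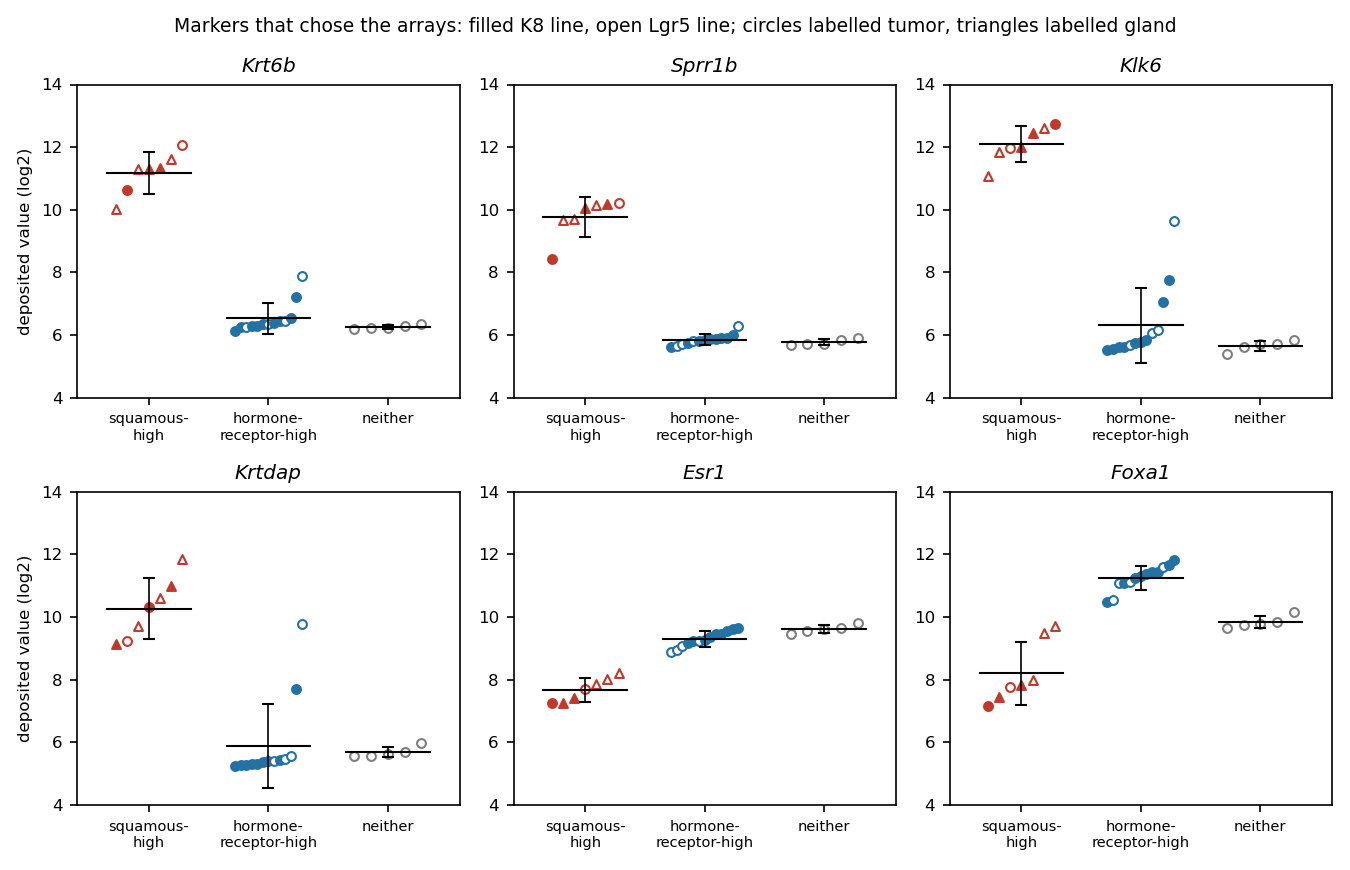
Deposited log2 values of the 6 genes that chose the arrays (y axis), 1 point per array, in the squamous-high, hormone-receptor-high and remaining arrays (x axis). Filled points are the K8 line, open points the Lgr5 line, circles are titled tumor and triangles gland, and bars give the mean ± SD. Klk6, Krt6b and Sprr1b did not overlap between the first and second sets, and the open circle at 9.77 for Krtdap is Lgr5 tumor 4.

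A gene was counted as higher or lower where the set means differed by at least 1 (log2) and no array of one set lay within the range of the other. By this rule 173 of 19937 genes (0.868%) were higher and 261 (1.31%) lower in the squamous-high arrays, 2.18% together, as a consequence of sets that were chosen to differ. These shares are the comparison for every list count below, also where they are not repeated. In lists this short a count of 0 is near them, and a count of 0 or 1 is not read as a result about the list. The median difference over all genes was 0.02. Whole profiles within the squamous-high set correlated at 0.968 to 0.993 (Pearson, 19937 genes), and profiles of the squamous-high arrays with those of the hormone-receptor-high tumors at 0.935 to 0.981.

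These 6 promoters are printed early because they show the sequence features that the later results return to. The letters are RefSeq's for mouse assembly GRCm38.p6, 5′ to 3′ on the strand of the gene, and cover the 250 bases before the listed start. The first 3 are of cornified envelope genes that were 15.1-, 20.8- and 16.2-fold higher in the squamous-high arrays (the overlapping Krtdap included). Capitals there mark TGANTCA, a loose form of the AP-1 motif in which N is any base, so a match on one strand is a match on the other. At N the match in Sprr1b holds A and those in Krtdap and Dmkn hold G. AP-1 is the Fos and Jun family of transcription factors. Dmkn has 3 listed starts, of which the first is shown.
Sprr1b (chr3:92438780-92439029, minus strand): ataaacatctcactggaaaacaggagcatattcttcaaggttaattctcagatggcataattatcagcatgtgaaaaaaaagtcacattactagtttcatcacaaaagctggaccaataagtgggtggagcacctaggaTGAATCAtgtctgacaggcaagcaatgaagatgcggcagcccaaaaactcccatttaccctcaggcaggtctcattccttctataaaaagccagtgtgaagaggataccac
Krtdap (chr7:30787655-30787904, plus strand): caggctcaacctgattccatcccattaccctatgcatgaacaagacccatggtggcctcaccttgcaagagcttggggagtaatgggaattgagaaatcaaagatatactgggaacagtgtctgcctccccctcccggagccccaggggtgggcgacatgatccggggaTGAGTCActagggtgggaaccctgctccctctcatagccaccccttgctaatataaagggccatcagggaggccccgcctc
Dmkn (chr7:30763506-30763755, plus strand): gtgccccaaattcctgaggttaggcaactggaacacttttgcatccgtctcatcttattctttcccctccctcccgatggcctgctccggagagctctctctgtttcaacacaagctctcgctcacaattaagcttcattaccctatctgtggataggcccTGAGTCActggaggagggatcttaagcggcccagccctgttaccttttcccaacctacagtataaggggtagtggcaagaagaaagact
The motif began 111, 81 and 89 bases before the start of Sprr1b, Krtdap and Dmkn. In the next 3, of genes that respond to low oxygen, capitals mark ACGTG, the core of the element bound by hypoxia-inducible factors, on either strand; it is also part of the E-box CACGTG.
Slc16a3 (chr11:120948817-120949066, plus strand): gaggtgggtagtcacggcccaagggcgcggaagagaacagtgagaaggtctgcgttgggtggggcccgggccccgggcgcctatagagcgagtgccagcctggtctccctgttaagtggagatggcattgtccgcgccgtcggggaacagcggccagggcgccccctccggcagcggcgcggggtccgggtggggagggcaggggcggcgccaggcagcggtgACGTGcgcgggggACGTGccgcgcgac
Ero1a (chr14:45318573-45318822, minus strand): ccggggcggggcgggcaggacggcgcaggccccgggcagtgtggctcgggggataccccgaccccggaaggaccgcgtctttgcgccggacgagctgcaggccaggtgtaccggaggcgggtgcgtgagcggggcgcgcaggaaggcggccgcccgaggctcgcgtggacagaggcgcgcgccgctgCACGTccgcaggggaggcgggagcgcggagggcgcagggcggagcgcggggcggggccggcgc
Egln3 (chr12:54203875-54204124, minus strand): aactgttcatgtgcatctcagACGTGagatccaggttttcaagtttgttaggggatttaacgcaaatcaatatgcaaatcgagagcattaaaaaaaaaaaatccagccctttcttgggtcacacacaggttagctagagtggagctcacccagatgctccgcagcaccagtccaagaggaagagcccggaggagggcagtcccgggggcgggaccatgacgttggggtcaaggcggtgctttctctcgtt
Slc16a3, the lactate exporter MCT4, held 2 matches, beginning 27 and 14 bases before its start. Ero1a, an oxidase of protein folding, held 1 at 63 bases and Egln3, an oxygen sensor that marks hypoxia-inducible factors for destruction, held 1 at 229 bases.

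Envelope precursors were shifted as a group. Of 27 measured cornified envelope genes, 9 were higher by the rule and 0 lower, all 27 differences were positive (56.7% of all genes were), and the list median was 2.00. The choosing marker Sprr1b was among the 9, and Krtdap was among the 27. Cnfn, cornifelin, was at 9.13, 11.35 and 11.64 in the squamous-high arrays against 6.48, 6.84 and 7.18. Dmkn, dermokine, was at 8.84, 10.29 and 11.05 against 5.86, 5.97 and 7.91. Crct1 showed the largest difference of the list (5.71), yet its ranges overlapped, since Lgr5 gland 2 had 9.42 and Lgr5 tumor 4 had 10.00. Rptn, repetin, was at 5.12 in Lgr5 gland 2 and up to 11.10 elsewhere in the set, against at most 5.26 in the hormone-receptor-high tumors.

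Among keratins, 3 of 13 suprabasal and stress keratins were higher and 0 lower (list median 0.67). The choosing marker Krt6b was among the 3, beside Krt6a and Krt16. Krt16, a partner of keratin 6, was at 7.76, 9.13 and 9.80 against 5.08, 5.21 and 5.66, and Krt6a, a near copy of Krt6b whose probes may share signal with it, was at 9.33, 10.05 and 11.10 against 5.14, 5.60 and 9.03. The terminal-differentiation pair Krt1 (5.87 to 9.79 against 5.84 to 6.21) and Krt10 (6.28 to 9.14 against 6.26 to 6.74) overlapped through Lgr5 gland 2 alone at their lower ends. Of 14 desmosome and gap junction genes, 3 were higher: Gjb2, connexin 26, by 3.45, Dsc2, desmocollin 2, by 2.28 and Pkp1, plakophilin 1, by 1.68. Dsg3, desmoglein 3, differed by 3.49 with overlap.

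Proteases of the skin surface had the highest median of the 31 lists. Of 20 measured skin protease and inhibitor genes, 9 were higher and 0 lower, with a list median of 2.36. The choosing marker Klk6 was among the 9. Klk7, which cuts corneodesmosomes, was at 11.02 to 12.75 against 5.84 to 10.92, a difference of 5.41, and its highest value outside the set was again that of Lgr5 tumor 4. Klk10 differed by 4.82 and Klk14 by 5.15. Asprv1, the protease that processes profilaggrin, differed by 4.68 (9.65 to 12.42 against 6.42 to 9.29). Cst6, a cystatin inhibitor, differed by 3.79 but overlapped.

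The kallikreins form 1 gene cluster on chromosome 7, and the shift covered a continuous stretch of it. Klk10, Klk9, Klk8, Klk7 and the choosing marker Klk6 were all higher and follow each other in gene order, the longest such run among the 173 genes. On one side Klk14 was higher too, while Klk13 (2.70), Klk12 (1.14) and Klk11 (1.52) overlapped. On the other side the difference was 1.32 for Klk5 with overlap, 0.06 for Klk4, 0.28 for Klk15 and -0.04 to 0.14 for the protein-coding Klk1b genes. The second longest run was Il1f8, Il1f9, Il1f6 and Il1f5, the interleukin 36 ligands and their receptor antagonist, on chromosome 2. Of the 173 higher genes, 35 (20.2%) had a neighbour that was also higher, and of the 261 lower genes 20 (7.66%) had a neighbour that was also lower; no test was made of that difference.

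Of 14 transcription factors of squamous fate, Grhl3 (2.25), Ovol1 (2.11) and Grhl1 (1.09) were higher by the rule and 0 were lower. Grainyhead-like factors drive late epidermal barrier genes, and Ovol1 promotes exit from the basal state. Grhl3 was at 7.67, 9.05 and 9.64 against 6.42, 6.71 and 7.12. Klf4, another barrier factor, differed by 1.78 but overlapped. Trp63, the master factor of basal keratinocytes and basal mammary cells, was no higher in the squamous-high arrays (9.12 to 9.95 against 9.54 to 10.49). Krt14 was at 11.49 to 12.37 against 10.39 to 11.73 and its partner Krt5 at 11.03 to 11.75 against 11.56 to 12.34, so the basal keratin pair differed in opposite directions, both with overlap.

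Alarmins and neutrophil genes were the other large higher group, with 10 of 24 higher, 0 lower and a list median of 2.00. S100a8, a subunit of the antimicrobial protein calprotectin, was at 8.54, 10.86 and 10.98 against 5.83, 6.12 and 6.65, and its partner S100a9 differed by 3.02. Il1f6, interleukin 36 alpha, was at 5.49, 10.20 and 10.72 against 5.18, 5.22 and 5.35. Il1f9, interleukin 36 gamma, differed by 3.75, Il1a, interleukin 1 alpha, by 3.14 and Defb4, a beta-defensin, by 3.86. Serum amyloid genes were also higher, Saa2 by 3.62 and Saa1 by 2.52, near copies that may share signal. The neutrophil chemokine receptor Cxcr2, named after values were seen, differed by 2.45. Values of the list's other neutrophil genes, such as Csf3r, Ngp and Mpo, are not given here, so Cxcr2 does not stand for them. The part of infiltrating cells in these differences was not tested. The T cell, B cell and macrophage lists held 0 genes that were higher or lower by the rule, with medians of -0.07, -0.14 and 0.13. In lists this short that count is near the 2.18% of all genes.

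**Figure D2:**
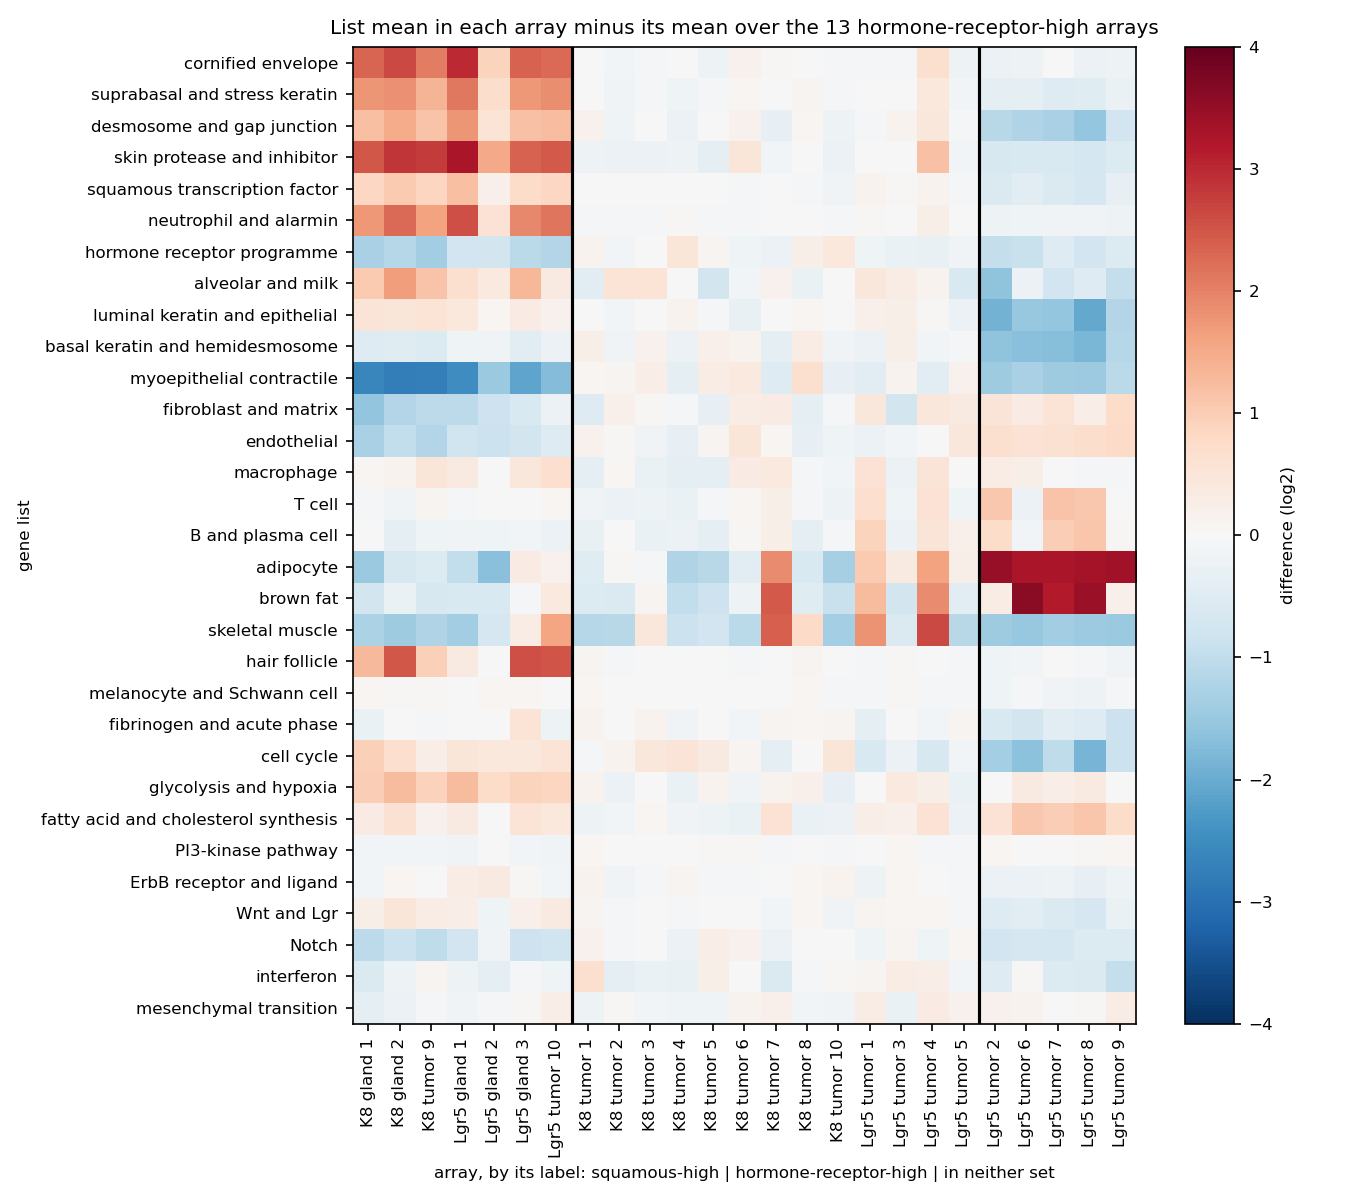
Mean of each of 31 gene lists (rows) in each of the 25 arrays (columns), as the difference in log2 from that list's mean over the 13 hormone-receptor-high tumors (colour). Black lines part the squamous-high arrays, the hormone-receptor-high tumors and the arrays in neither set. The squamous, protease and alarmin rows are red across the squamous-high arrays and palest in Lgr5 gland 2, the myoepithelial row is blue, and the adipocyte row is red in the 5 arrays at the right.

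The lower genes were led by the contractile apparatus of myoepithelial cells, the layer that squeezes milk from the gland. Of 12 measured genes, 9 were lower, 0 higher, and the list median was -2.25. Cnn1, calponin, was at 6.55, 7.10 and 9.49 in the squamous-high arrays against 10.86, 12.52 and 12.76, a 25.8-fold difference of means (7.49 ± 1.05, SD, n = 7, and 12.18 ± 0.65, SD, n = 13). Myh11, the smooth muscle myosin heavy chain, was at 6.66, 7.29 and 8.96 against 9.96, 11.84 and 12.20. Actg2, smooth muscle actin gamma, was lower by 3.45 (6.60 to 7.83 against 8.55 to 11.80). Oxtr, the oxytocin receptor that triggers milk ejection, was at 7.13, 7.71 and 9.45 against 9.55, 10.38 and 11.22. Tagln, transgelin, and Mylk, the kinase that activates smooth muscle myosin, differed by -2.51 and -2.31.

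Among the 15 lowest genes, 9 were in none of the lists. Casq2, the calcium store protein calsequestrin 2, was at 5.69 to 6.25 against 8.33 to 10.44, and Kcnmb1, a subunit of the smooth muscle potassium channel, was at 5.77 to 7.12 against 7.70 to 10.53. Pcp4, a calmodulin partner, differed by -3.81. The other 6 were Stk32a (-3.51), Dpep1 (-3.46), Matn2 (-3.29), Fmod (-3.24), Il17b (-3.16) and Ism1 (-3.12), of which Fmod, fibromodulin, and Matn2, matrilin 2, encode matrix proteins. In the 5 arrays of neither set Casq2 (5.73 to 5.91), Stk32a (5.74 to 5.88) and Pcp4 (6.06 to 7.14) were low too. So were Kcnmb1 (6.33 to 7.08) and Fmod (6.97 to 8.00). Ism1 (7.92 to 8.74), Matn2 (8.62 to 9.16) and Il17b (7.77 to 9.78) also lay below the hormone-receptor-high tumors there. Dpep1 (11.40 to 11.85) did not. The basal keratin and hemidesmosome list held 1 lower gene of 13 (Dst, dystonin, by -1.09) and had a median of -0.29. Overlapping genes included, 3 of the 13 were lower by at least 1, against 2.59% of all genes, and 5 differences were positive. Krt15 was at 5.86 to 8.60 against 7.90 to 10.23 (-2.09) and Lama3 differed by -1.10, both with overlap. The skeletal muscle list held 0 genes past the rule, and its mean level was 6.42 to 9.42 in the squamous-high arrays, highest in Lgr5 tumor 10, and 6.48 to 10.48 in the hormone-receptor-high tumors.

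The hormone receptor programme held 4 lower genes of 13 and 0 higher, with a list median of -0.93. Beside the choosing markers Esr1 and Foxa1, these were Pgr, the progesterone receptor, at 5.84, 6.38 and 6.76 against 8.66, 9.20 and 10.16, and Cited1, a coactivator of the estrogen receptor, at 7.63, 8.30 and 10.19 against 10.30, 11.70 and 12.31. Gata3, the luminal master regulator, differed by -1.09, and only Lgr5 gland 2 (11.10) lay inside the range of the hormone-receptor-high tumors, whose lowest value was 11.09. Of general luminal markers, 0 of 16 luminal keratin and epithelial genes were past the rule, against 2.18% of all genes (list median 0.36). Krt8 was at 12.86 to 13.20 against 12.80 to 13.23. Fgg and Fgb, fibrinogen chains, differed by -4.28 and -3.91 with overlap, since Lgr5 gland 2 had 10.15 and 9.18.

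Milk genes were uneven. Of 19 alveolar and milk genes, 0 were past the rule (2.18% of all genes were) and the list median was 0.52. Ltf, lactoferrin, differed by 2.93 (11.25 to 12.96 against 7.68 to 11.87) and Csn1s2a, a casein, by 2.99 (10.34 to 13.41 against 6.16 to 12.52). Glycam1, a whey mucin, ran from 6.53 to 12.40 within the squamous-high set itself.

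**Figure D3:**
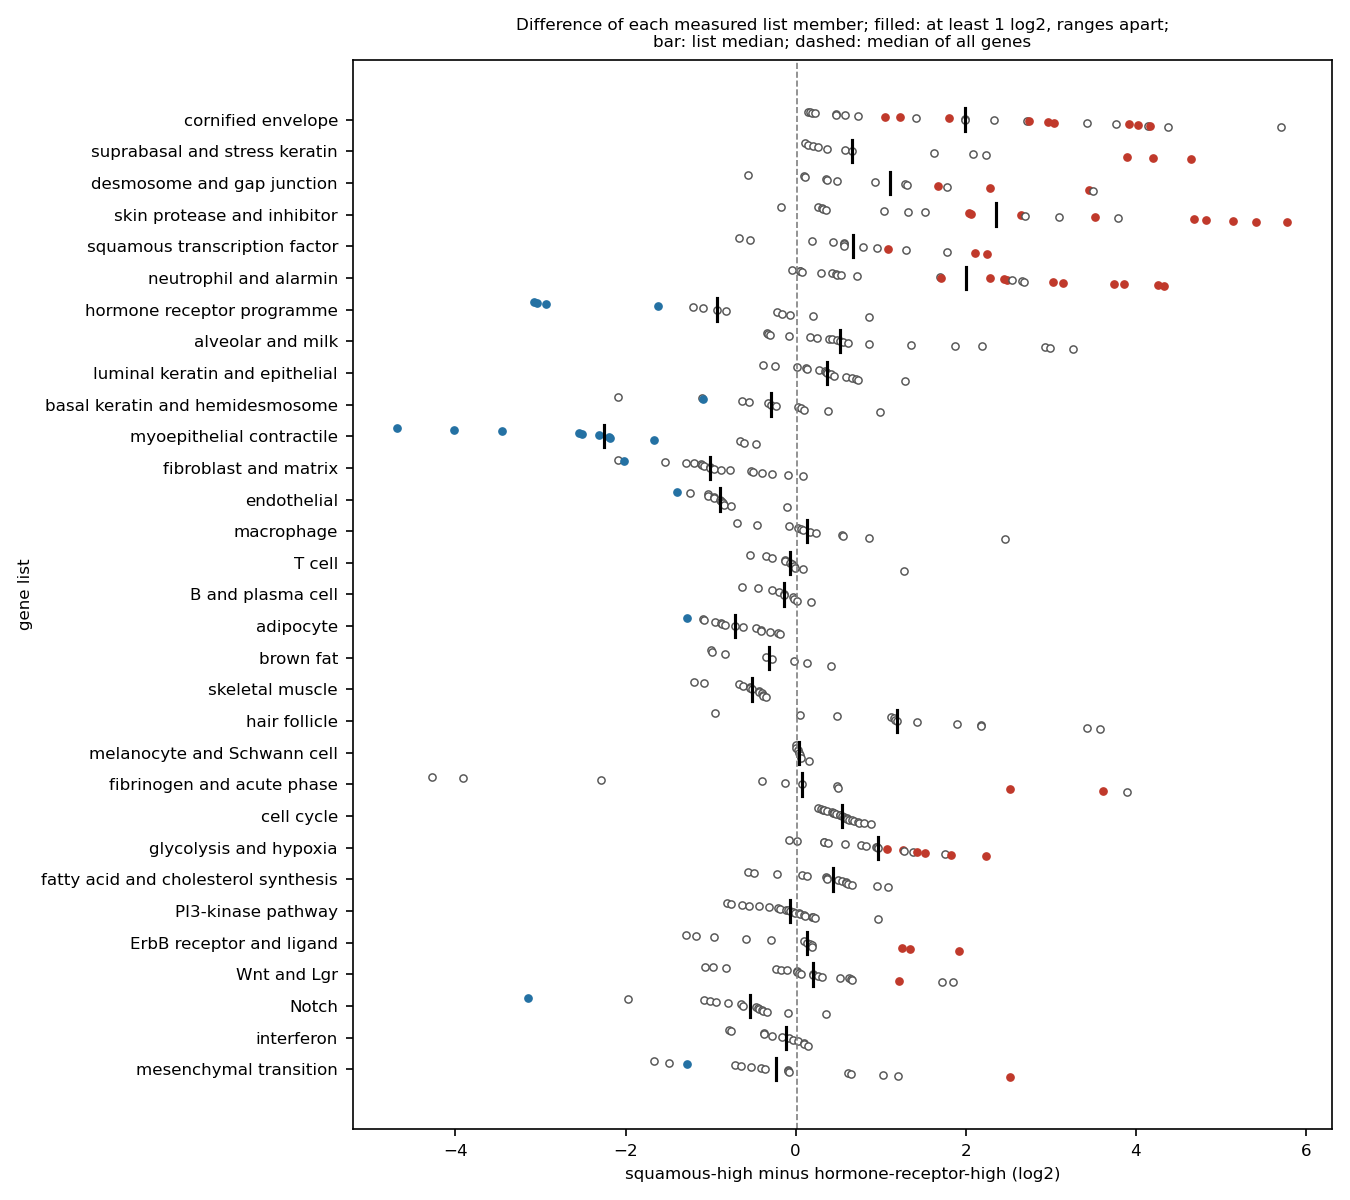
Difference of set means (squamous-high minus hormone-receptor-high, log2, x axis) for every measured member of the 31 lists (rows). Red and blue points differ by at least 1 with no overlap between the sets, open points do not, black bars are list medians and the dashed line is the median of all genes at 0.02. Envelope, protease and alarmin genes lie to the right, contractile and hormone receptor genes to the left, and all 23 cell cycle genes lie right of 0 without passing the rule.

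Glycolysis and hypoxia genes were higher in 6 of 20 cases and lower in 0, with a list median of 0.96. Slc16a3 was at 8.83, 9.99 and 10.46 against 7.37, 7.61 and 8.43. Ero1a was at 11.27, 11.96 and 12.54 against 9.68, 10.04 and 10.73. Adm, adrenomedullin, differed by 1.52 and Ndrg1, a stress response gene, by 1.43. Egln3 differed by 1.75 and Hk2, hexokinase 2, by 1.38, both with overlap. The mean of the list did not overlap between the sets, at 10.31 to 10.85 against 9.26 to 9.97.

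Cell cycle genes showed a small difference. All 23 were higher on average (56.7% of all genes were), none by 1 or more, and the largest difference was 0.88 for Rrm2, a ribonucleotide reductase subunit. The mean of the list overlapped between the sets, at 9.08 to 9.76 against 8.16 to 9.30.

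Growth factor ligands of the ErbB receptors differed in direction. The epidermal growth factor receptor ligands Hbegf (8.03 to 9.46 against 6.58 to 7.63), Epgn (6.52 to 7.21 against 5.26 to 6.31) and Tgfa (8.15 to 9.15 against 7.08 to 7.50) were higher by 1.92, 1.34 and 1.25. The neuregulins Nrg1, Nrg2 and Nrg4, ligands of other ErbB receptors, differed by -1.17, -0.96 and -1.29, all with overlap. Of the 21 PI3-kinase pathway genes 0 were past the rule, which in a list of this size is near the 2.18% of all genes. Pik3ca itself was at 10.25 to 10.44 against 10.40 to 10.65 and is not told apart here by allele.

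Of 21 Wnt and Lgr genes 1 was higher by the rule (0.868% of all genes were). This was Znrf3, a Wnt target that removes Wnt receptors, with a difference of 1.22. Axin2, the classical Wnt target, was at 5.74, 8.02 and 8.46 against 5.63, 5.79 and 6.11, its lowest value again that of Lgr5 gland 2. Lgr5 was at 8.05 to 9.69 in the squamous-high arrays of both lines and at 5.88 to 9.82 in the hormone-receptor-high tumors. Of 16 Notch genes 1 was lower by the rule (1.31% of all genes were). This was Hey2, a Notch target (5.95, 6.63 and 8.97 against 9.07, 10.07 and 10.68). The list median was -0.54, and Hey1 differed by -1.97 with overlap through Lgr5 gland 2 (11.41).

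Stromal list medians were below that of all genes. The fibroblast list had a median of -1.0 with 1 lower gene of 19 (10 were lower by at least 1, overlapping ones included, against 2.59% of all genes), Ogn, the matrix proteoglycan osteoglycin (6.71 to 9.10 against 9.44 to 10.99). The endothelial list had a median of -0.89 with 1 lower gene of 13, Kdr, a vascular growth factor receptor (6.88 to 7.80 against 8.24 to 9.63). Mmp13, a collagenase, was higher by 2.52 and Zeb1, a mesenchymal transcription factor, lower by 1.28. The part of stromal content in the other differences was not tested.

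**Figure D4:**
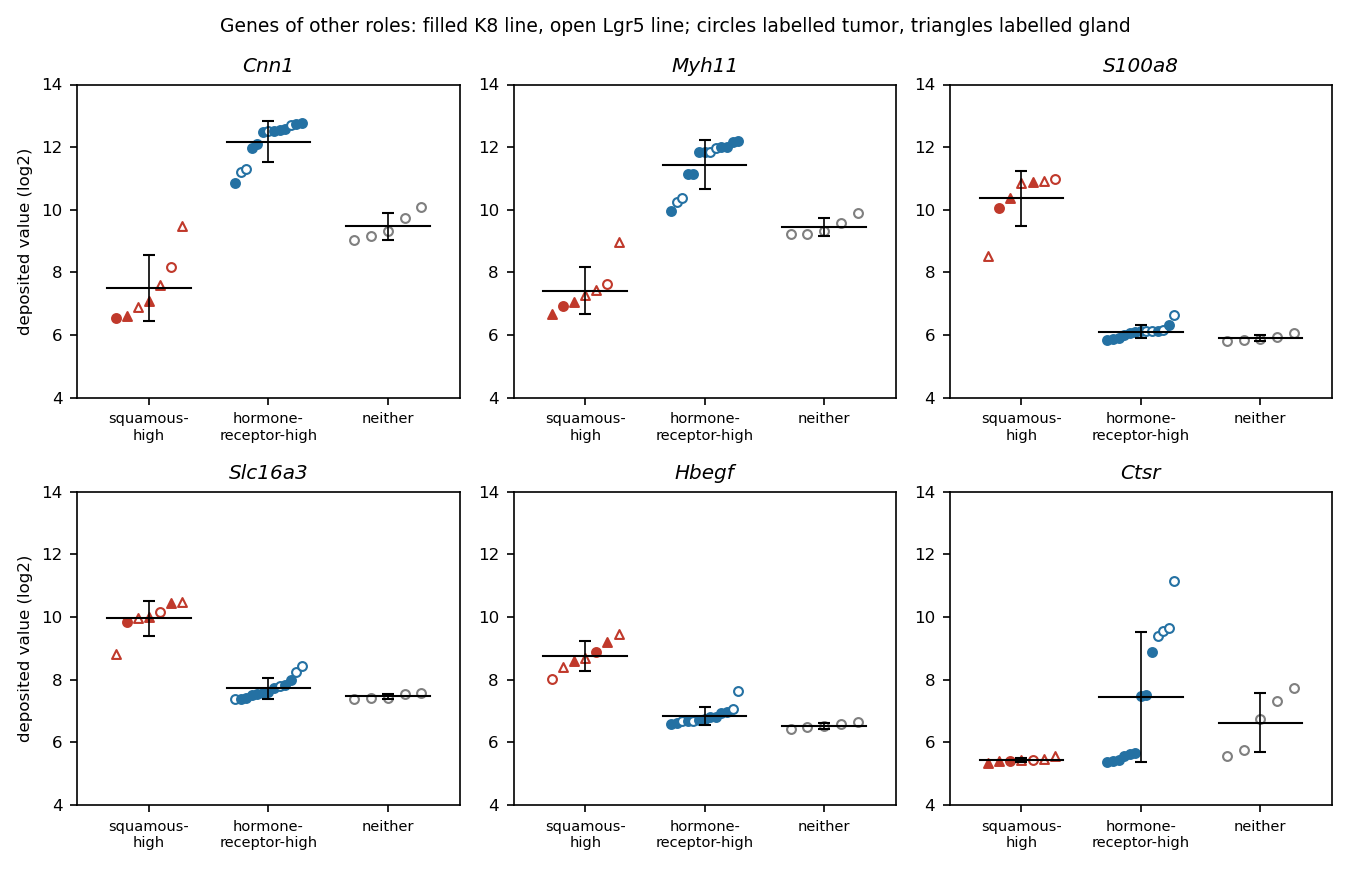
Deposited log2 values (y axis) of 6 genes of other roles, drawn as in the plot of the choosing markers, with 1 point per array and the mean ± SD. Cnn1 and Myh11 (contractile) were lower and S100a8 (alarmin), Slc16a3 (lactate export) and Hbegf (growth factor) higher in the squamous-high arrays without overlap. Ctsr was at 5.33 to 5.58 in all 7 of them and split the hormone-receptor-high tumors by line. In the 5 arrays of neither set, all titled Lgr5 tumor, Ctsr was at 5.57 to 7.75.

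The squamous-high arrays were not uniform. The cornified envelope mean was 8.07 to 8.99 in 6 of them and 6.90 in Lgr5 gland 2, against at most 6.67 in the hormone-receptor-high tumors. Lgr5 gland 2 also had the highest myoepithelial mean of the set (8.77 against 7.47 to 8.52) and the lowest Il1f6 (5.49, against 9.73 to 10.72 in the other 6) and Klk14 (7.12, against 11.49 to 12.27). It was the only array of the set whose whole profile correlated better on average with the hormone-receptor-high tumors (0.976) than with the other squamous-high arrays (0.971). Without it, 397 genes were higher and 462 lower, including 172 of the 173 and all 261.

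The nearest array on the other side was Lgr5 tumor 4, with a cornified envelope mean of 6.67 against 5.81 to 6.18 in the other 12 hormone-receptor-high tumors. Its Klk7 was 10.92, close to the 11.02 of Lgr5 gland 2, and its Klk14 (6.76) was the highest of the 13, the next being 6.27. Its Il1f6 (5.22) lay within the range of the other tumors. Lgr5 tumor 4 also carried skeletal muscle and brown fat genes, as did K8 tumor 7 and Lgr5 tumor 1. Without these 3 arrays 273 genes were higher and 363 lower.

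Hair follicle genes varied widely within the squamous-high set. The list mean was 8.60, 8.51 and 8.50 in Lgr5 gland 3, Lgr5 tumor 10 and K8 gland 2, and 7.30, 6.96, 6.37 and 6.01 in K8 gland 1, K8 tumor 9, Lgr5 gland 1 and Lgr5 gland 2. It was 5.94 to 6.12 in the hormone-receptor-high tumors. Tchh, trichohyalin of the inner root sheath, ran from 5.69 to 10.66 and Krt73, a root sheath keratin, from 5.78 to 11.23. Of the 13 genes 10 differed by at least 1 between the set means (2.20% of all genes were higher by that much), but all 10 overlapped, so 0 passed the rule. Lgr5 gland 1 had the highest cornified envelope mean (8.99) but one of the lowest hair follicle means, so the levels of the 2 lists did not follow the same order. Over 7 melanocyte and Schwann cell genes the median difference was 0.04. The part of included skin in these values was not tested.

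**Figure D5:**
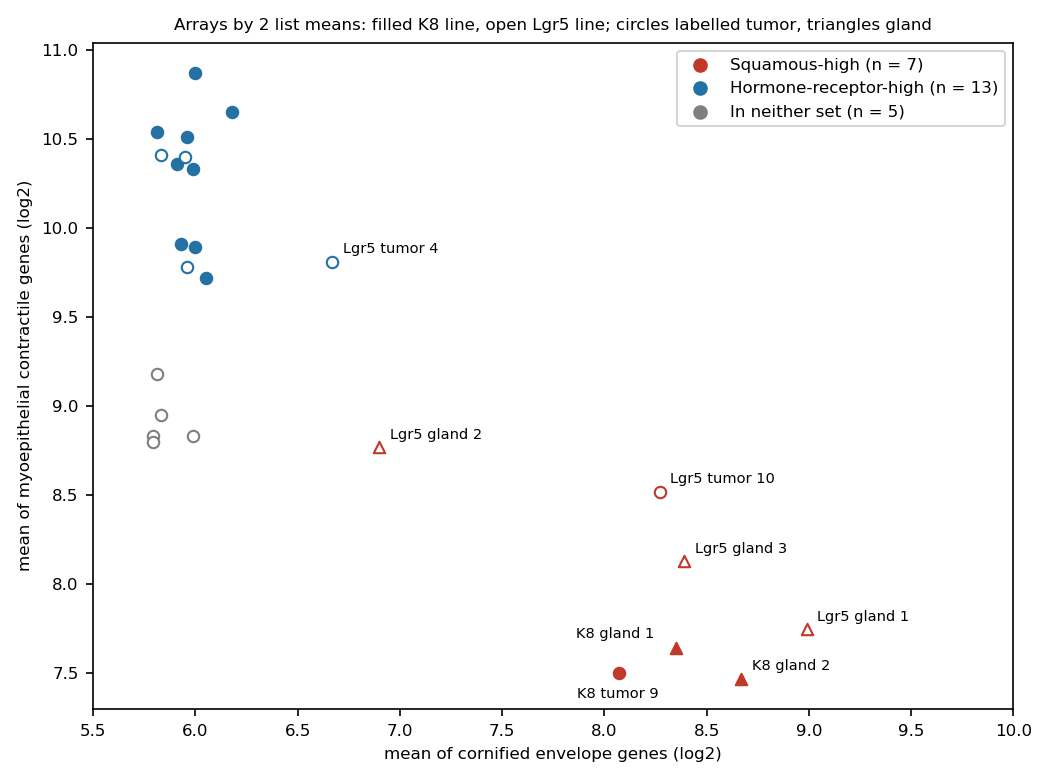
Each array by its mean of cornified envelope genes (x axis, log2) and of myoepithelial contractile genes (y axis, log2), coloured by set, with filled points for the K8 line, open for the Lgr5 line, circles for arrays titled tumor and triangles for gland. The other squamous-high arrays lie at the lower right between 8.07 and 8.99, Lgr5 gland 2 at 6.90 lies between the sets, and Lgr5 tumor 4 at 6.67 is the hormone-receptor-high tumor farthest to the right.

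The promoters of the higher genes were searched for 8 motifs on both strands over the 250 bases before the start, among 15613 measured genes with a RefSeq promoter; these motifs were chosen with the lists in view, and the shares are descriptions. TGANTCA, with any base at N, was present in 26 of 129 promoters of higher genes (20.2%), 18 of 192 of lower genes (9.38%) and 7.12% of all. In the cornified envelope list 14 of 24 promoters held it, those of Sprr1b, Krtdap and Dmkn printed above among them. Lor, loricrin, held it too and differed by 0.20, while Cnfn did not and differed by 4.17. ACGTG was present in 15 of 19 promoters of the glycolysis and hypoxia list and in 20.9% of all, but in 17.1% of the higher genes as a whole. Of the other motifs, CCACCC, bound by Kruppel-like factors, was in 43.4% of higher, 53.6% of lower and 34.3% of all promoters. The E-box CACGTG (6.20%, 4.17% and 8.11%), the forkhead TGTTTAC (3.10%, 3.12% and 3.18%), the grainyhead AACCNGTT (1.55%, 1.04% and 1.97%) and the CArG box (3.88%, 2.08% and 1.45%) were rare, and the estrogen response element was found in 5 promoters in all. Krt6b, Krt6a, Krt16, Il1f6, Myh11, Actg2, Tagln and Hbegf had no entry in the promoter table.

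The titles were not used to choose the arrays, and line and tissue labels were compared within the sets with limma, which fits a linear model to every gene. Each label holds only the arrays that measured values had placed in a set, and 5 arrays titled Lgr5 tumor are in neither. The contrasts therefore compare labels among chosen arrays and do not test a label independently of the choice. Between the 2 arrays titled tumor and the 5 titled gland within the squamous-high set, 0 of 19937 genes (0.0%) passed at a Benjamini-Hochberg adjusted p of 0.05, with 1026 genes at an unadjusted p under 0.05. Among named genes the smallest adjusted p was 0.234, shared by 9. Of these Gata3 differed by -0.88 ± 0.17 (SE; tumor minus gland), Stfa3, a cystatin of a family with near-identical copies, by -1.30 ± 0.27 and Cxcl14, a chemokine of epithelia, by 0.78 ± 0.16. The count of calls moved with single arrays: it was 29 without K8 tumor 9, 11 without Lgr5 gland 2 and 3 without Lgr5 tumor 10. Without either array titled tumor that arm holds 1 array, which the fit assumes to vary like the other groups.

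Between the 3 K8 and 4 Lgr5 arrays of the squamous-high set, 0 genes (0.0%) passed and 1201 had an unadjusted p under 0.05. Tpm2, a tropomyosin of contractile cells, was at 7.36, 7.41 and 7.57 in the K8 arrays and at 8.57, 8.69, 8.85 and 9.50 in the Lgr5 arrays, without overlap (K8 minus Lgr5 -1.46 ± 0.24, SE, limma adjusted p = 0.092). Cav1, caveolin 1, and its partner Cavin1 differed by -1.08 ± 0.20 and -0.75 ± 0.14 (limma adjusted p = 0.121 and 0.0995). Calls numbered 43 without Lgr5 gland 1, 19 without Lgr5 gland 3 and 6 without K8 gland 1.

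Between the 9 K8 and 4 Lgr5 hormone-receptor-high tumors, again 0 genes (0.0%) passed, and 2326 had an unadjusted p under 0.05. Ctsr, a cathepsin of a family known from the placenta, had the smallest p of the named genes. It was at 9.41, 9.55, 9.66 and 11.14 in the 4 Lgr5 tumors and at 5.37 to 8.87 in the 9 K8 tumors, without overlap (K8 minus Lgr5 -3.62 ± 0.56, SE, limma adjusted p = 0.0562). In the squamous-high arrays it was at 5.33 to 5.58 in both lines. In the 5 arrays of neither set, all titled Lgr5 tumor, it was at 5.57 to 7.75, inside the range of the K8 tumors. High Ctsr was therefore not a trait of all arrays titled Lgr5 tumor. Ctsj, a relative of Ctsr that overlapped between the lines, differed by -1.04 ± 0.20 (limma adjusted p = 0.111). Calls numbered 182 without K8 tumor 7, 88 without Lgr5 tumor 5, 3 without Lgr5 tumor 3 and 1 without K8 tumor 5, and 1160 when limma weighted the arrays by quality.

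The line difference was also compared between the sets, and 0 genes (0.0%) passed, with 1078 at an unadjusted p under 0.05. This contrast takes the line difference in one set minus that in the other. The sets were chosen from measured values of these arrays, so the count is given as a description and no conclusion is drawn from it. Esr1 and Foxa1 helped choose the sets, so their values are given with no test. Esr1 had means of 7.32 in the K8 and 7.95 in the Lgr5 arrays of the squamous-high set, and of 9.41 and 9.04 in the hormone-receptor-high tumors. The set difference of Esr1 was -2.10 within the K8 line and -1.09 within the Lgr5 line, and that of Foxa1 was -3.84 and -2.34. Calls numbered 5 without Lgr5 gland 1, 3 without K8 gland 1, and 1 without Lgr5 tumor 5 or without Lgr5 gland 3.

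Within each line the main groups kept their direction as descriptions. The list medians in the K8 and Lgr5 lines were 2.32 and 1.76 for cornified envelope genes, 2.53 and 2.28 for skin proteases and 1.86 and 1.93 for alarmins. They were -2.74 and -1.86 for myoepithelial contractile genes, -1.31 and -0.33 for the hormone receptor programme and 1.05 and 0.87 for glycolysis and hypoxia genes. Taking only the K8 arrays, 514 genes were higher and 693 lower, and taking only the Lgr5 arrays 215 and 323.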

How the data were processed

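Total RNA from 100 ng of cryo-homogenized tissue was amplified, labelled and hybridised to 25 Affymetrix whole-transcript arrays, per the labels' protocols. The authors deposited log2 values for 34760 probe sets (range 4.13 to 13.94, the base judged from that range); the submitters' processing notes name affy, and normalization steps and genome build remain not given in the sources used here. The number of arrays limits precision. Platform annotation gave 21640 probe sets 1 symbol, 1321 several and 11799 none. For 954 symbols with several probe sets the brightest was kept, leaving 19937 genes.

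Members and the 31 lists (474 of 505 genes measured) were chosen with earlier results of these data known. Named genes were the rule's markers, 7 design genes, the 15 highest and 15 lowest differences past the rule, the 6 largest differences per list and the 8 smallest adjusted p per direction of each label contrast; Lor, Cxcr2 and the cluster neighbours of Klk6 and Il1f6 were added after values were seen, as was the choice of promoters to print.

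Label contrasts used limma 3.58.1 (R 4.3.3; lmFit, eBayes, Benjamini-Hochberg over 19937 genes) on the 20 arrays of both sets. In a test on simulated arrays, where 100 genes were shifted by 1 and another 100 by 2 (log2), it recovered 94% and 99% for the line within the hormone-receptor-high tumors, 82% and 98% for the line and 80% and 95% for the tissue label within the squamous-high arrays, and 79% and 95% for the difference of line contrasts, with independent noise between genes. Of the unshifted genes it called 8, 14, 9 and 10 in the same order. The simulated noise was normal, with the same spread for a gene in every array. The real arrays included outlying ones, so these shares are not the recovery in the real data. Figures used matplotlib 3.10.9.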

Additional observations from a re-analysis of the deposited data

Results flagged for a closer look

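Each of 189 groups of 4 to 10 arrays (list means and leading genes) was searched for 1 array far from the rest, judged by its gap to the nearest array relative to the range (Dixon's test at 95%). The search marked 44, and chance marks about 1 in 20 groups. The groups share arrays and the genes move together, so the marks are not independent. All values are log2.

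Lgr5 gland 2 stood apart most often in the squamous-high set. Its values were lowest for Asprv1 (9.65, next 11.63), Cnfn (9.13, next 10.88), Defb4 (5.39, next 8.99), Dmkn (8.84), Dynap (8.43, next 10.06), Il1f6 (5.49, next 9.73), Klk10 (10.61, next 12.11), Klk14 (7.12, next 11.49) and S100a8 (8.54, next 10.06). They were highest for Hey2 (8.97, next 6.87), Matn2 (8.44, next 7.24), Myh11 (8.96, next 7.64) and Stk32a (6.73, next 5.95). They were also highest for the list means of Notch genes (9.04) and PI3-kinase pathway genes (9.47). In the same set the acute phase list mean was highest in Lgr5 gland 3 (8.64, next 8.12), and Sprr1b was lowest in K8 tumor 9 (8.43, next 9.67).

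Among the K8 hormone-receptor-high tumors, K8 tumor 7 had the highest list means of adipocyte (11.03), brown fat (9.82) and fatty acid and cholesterol genes (10.62), with the highest Dynap (6.65) and Krt6b (7.23). It had the lowest Actg2 (9.05), Cited1 (10.30), Cnn1 (10.86), Il17b (10.42), Kcnmb1 (7.97) and Myh11 (9.96). K8 tumor 6 had the highest skin protease mean (7.54), Klk7 (8.60) and Krtdap (7.71). The squamous transcription factor mean was lowest in K8 tumor 10 (7.59, next 7.68).

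Among the Lgr5 hormone-receptor-high tumors, Lgr5 tumor 4 had the highest means of cornified envelope (6.67), skin protease (8.21) and alarmin genes (6.27). It also had the highest Asprv1 (9.29), Klk6 (9.65), Klk7 (10.92), Krt16 (5.66), Krt6b (7.90) and Krtdap (9.77), and the lowest Fmod (10.89, next 11.33). The fibroblast mean was lowest in Lgr5 tumor 3 (9.92, next 11.03), and S100a8 was highest in Lgr5 tumor 5 (6.65, next 6.17). No cause of these values was tested.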

How the results depend on the processing

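No gene past the rule changed direction under the alternatives run, among those named for a reason other than a label contrast. Genes named by a label contrast alone were not recomputed. Where arrays are left out this outcome is fixed by the rule, since the ranges do not overlap. Only the changes of normalization and of probe sets could have reversed a direction. List medians are not fixed in this way, and that of the macrophage list went from 0.13 to -0.02 with the Lgr5 arrays alone. The 173 higher and 261 lower genes became 96 higher with dim genes left out, 514 and 693 with the K8 arrays alone, 439 and 517 with no requirement on overlap, and 82 and 66 with a difference of at least 2. Added after seeing the data, leaving out the 3 arrays with muscle and brown fat genes gave 273 higher, and leaving out Lgr5 gland 2 and Lgr5 tumor 4 gave 414 and 475. Leaving out 1 array at a time gave 164 to 397 higher and 256 to 462 lower. Median centring gave 200 and 245.

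For the label contrasts, limma with 0 calls as reported made 2 calls with quantile normalization, 2 with trend and robust settings and 1160 with array weights for the line within the hormone-receptor-high tumors. For the line within the squamous-high arrays it made 6 with quantile normalization, and with array weights 1 for the difference of line contrasts and 1 for the tissue label. Leaving out 1 array gave 0 to 182, 0 to 43, 0 to 5 and 0 to 29 calls for the line within the hormone-receptor-high tumors, the line within the squamous-high arrays, the difference and the tissue label; the cause was not tested. Same-numbered arrays of the lines, taken as deviations from their group means, correlated at -0.28 to 0.34. Deviations within groups this small constrain each other, so the values do not settle whether the numbers pair samples. With the replicate number as a block, calls were 0, 1 and 0 for the line contrasts and their difference. No paired analysis was possible because tumor and gland titles share no numbers within the squamous-high set.

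Of 5728 recomputed gene differences 5678 moved by less than the spread between arrays, as did 892 of 899 list medians. Signal over background could not be judged, since detection calls were not analysed here. Differences of genes near the low end of the scale are compressed.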
